A study of Mus musculus with 12 samples.

Results

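The genes described here are 10 regulators of the passage from G1 into S phase, taken by symbol from the 24982 gene symbols listed for each library: the D-type cyclins Ccnd2 and Ccnd3, the kinases Cdk4 and Cdk6 that they activate, the E-type cyclins Ccne1 and Ccne2, their kinase Cdk2, the inhibitors Cdkn1b (p27) and Cdkn2c (p18), and Rb1. All 10 symbols were found, and all 10 passed the filter on low values in each comparison. RNA with poly(A) tails came from B lymphocytes of the spleens of mice 6 weeks old, and directional libraries were sequenced. The 12 libraries fall into 3 groups of 4, named here by genotype: wild-type (WT, C57BL/J6), Eμ-Myc, and Eμ-Myc; PRPS2 KO, called the knockout group below. The Eμ-Myc transgene puts Myc under an enhancer of the immunoglobulin heavy chain locus, so that it is expressed in the B lineage from early stages on, and the knockout group carries it too. PRPS2 belongs to the synthetases of phosphoribosyl pyrophosphate, from which nucleotides are built. No group lacked PRPS2 without the transgene, so the comparisons with the knockout group cannot tell a loss of PRPS2 alone from a loss in cells with deregulated Myc. The labels do not say whether the libraries of a group came from separate mice, and p-values then measure the spread between these libraries.

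A cell in G1 enters S phase when cyclin-dependent kinases phosphorylate the retinoblastoma protein, the product of Rb1, and so free the E2F transcription factors that it holds. Cyclin D bound to CDK4 or CDK6 begins this phosphorylation and cyclin E bound to CDK2 completes it; INK4 proteins such as p18 bind CDK4 and CDK6, and CIP/KIP proteins such as p27 hold cyclin E-CDK2 inactive. Myc is known to push cells through this step, Cdk4 and Ccnd2 are among the genes it has been reported to bind in other cells, and p27 is removed in part by the ubiquitin ligase that contains SKP2 and CKS1B.

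Each value is a coverage signal per gene, divided by a scaling factor for its library and called scaled coverage. That the signal is a mean per base is not stated. The sum of deposited coverage ran from 1277305.5 to 1885768.9 per library, and the files give no read numbers, so errors are SDs between libraries. Prps2 was at 18.8, 16.9, 16.3 and 15.4 in the knockout libraries 1 to 4, below 201 to 281 in Eμ-Myc and 104 to 142 in WT, as their labels state. Cd79a and Cd79b, which encode the signalling chains of the B cell receptor, were at 1184 to 2330.0 and 2177 to 4401 over the 12 libraries. Of 6 B cell markers given here, Cd79a, Cd79b, Pax5, Ms4a1 and Blnk did not pass in any comparison, while Cd22 fell to 0.496 of the WT level in Eμ-Myc (limma adjusted p 0.00386) and to 0.502 in the knockout group (adjusted p 0.0421). Other markers differed between groups: in limma, 9 of 9 T cell, 7 of 7 NK cell and 5 of 5 tested mature B cell markers fell in Eμ-Myc against WT, and 5 of 8 early B cell markers rose and 1 fell, where 27.9% of all genes fell and 28.3% rose. The knockout group against WT gave 3 of 5 mature B cell markers lower, 3 of 4 platelet markers lower (Pf4, Ppbp and Itga2b) and 5 of 8 early B cell markers higher, where 31.4% of all genes passed; 0 of 9 T cell and 0 of 7 NK cell markers passed in limma (7 and 2 under an unadjusted p of 0.05), with median log2 fold changes of -3.27 and -2.57. Of the 10 myeloid and 7 erythroid markers, 0 passed in limma in any of the 3 comparisons. Within the knockout group, libraries 1 and 2 stood apart from libraries 3 and 4. Their T cell markers summed to 848 and 919 against 56.3 in each of libraries 3 and 4, their mature B cell markers to 2181 and 1855 against 417 and 468, and their myeloid markers to 16791 and 11800.1 against 2917 and 1269. WT library 4 held the most T cell marker coverage (3895, against 718 to 1346 in the other WT libraries) and WT library 1 the most myeloid (27979, against 8525 to 15064). No marker of these lists was at 0 in all 4 libraries of a group. In such bulk samples, fewer cells of a type and less RNA per cell cannot be told apart, and the part of these markers in the results below was not tested.

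In Eμ-Myc, the genes for both E-type cyclins, the 3 kinases and p18 were higher than in WT, and the genes for cyclin D2 and p27 were lower. Ccne2 rose by 3.33 on the log2 scale and Ccne1 5.95-fold, Cdkn2c 3.71-fold, Cdk4 3.15-fold, Cdk2 1.89-fold and Cdk6 1.53-fold, while Ccnd2 fell to 0.332 and Cdkn1b to 0.553 of the WT level; Ccnd3 and Rb1 did not pass the test. That makes 8 of the 10 genes called by limma at an adjusted p under 0.05, 6 higher and 2 lower. Over all 12700 genes tested in this comparison 56.2% were called, 28.3% higher and 27.9% lower, so a call alone is common here. The median log2 fold change was 0.76 over the 10 genes and -0.07 over all genes. The libraries of Eμ-Myc and WT did not overlap for 9 of the 10 genes, all but Ccnd3, and for 52.3% of all genes tested. In the knockout group against WT, 8 of 10 genes passed, the same genes in the same directions as in Eμ-Myc, against a background of 31.4% called over 12692 genes. Their groups did not overlap for 9 of 10 genes, again all but Ccnd3, and for 38.8% of all genes. These comparisons share the WT libraries. In the knockout group against Eμ-Myc, none of the 10 passed in limma and 0 were under an unadjusted p of 0.05; over all 12515 genes 1, Prps2, was called (0.00799%), and the groups did not overlap for 0 of the 10 genes and for 1.59% of all genes.

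**Figure D1:**
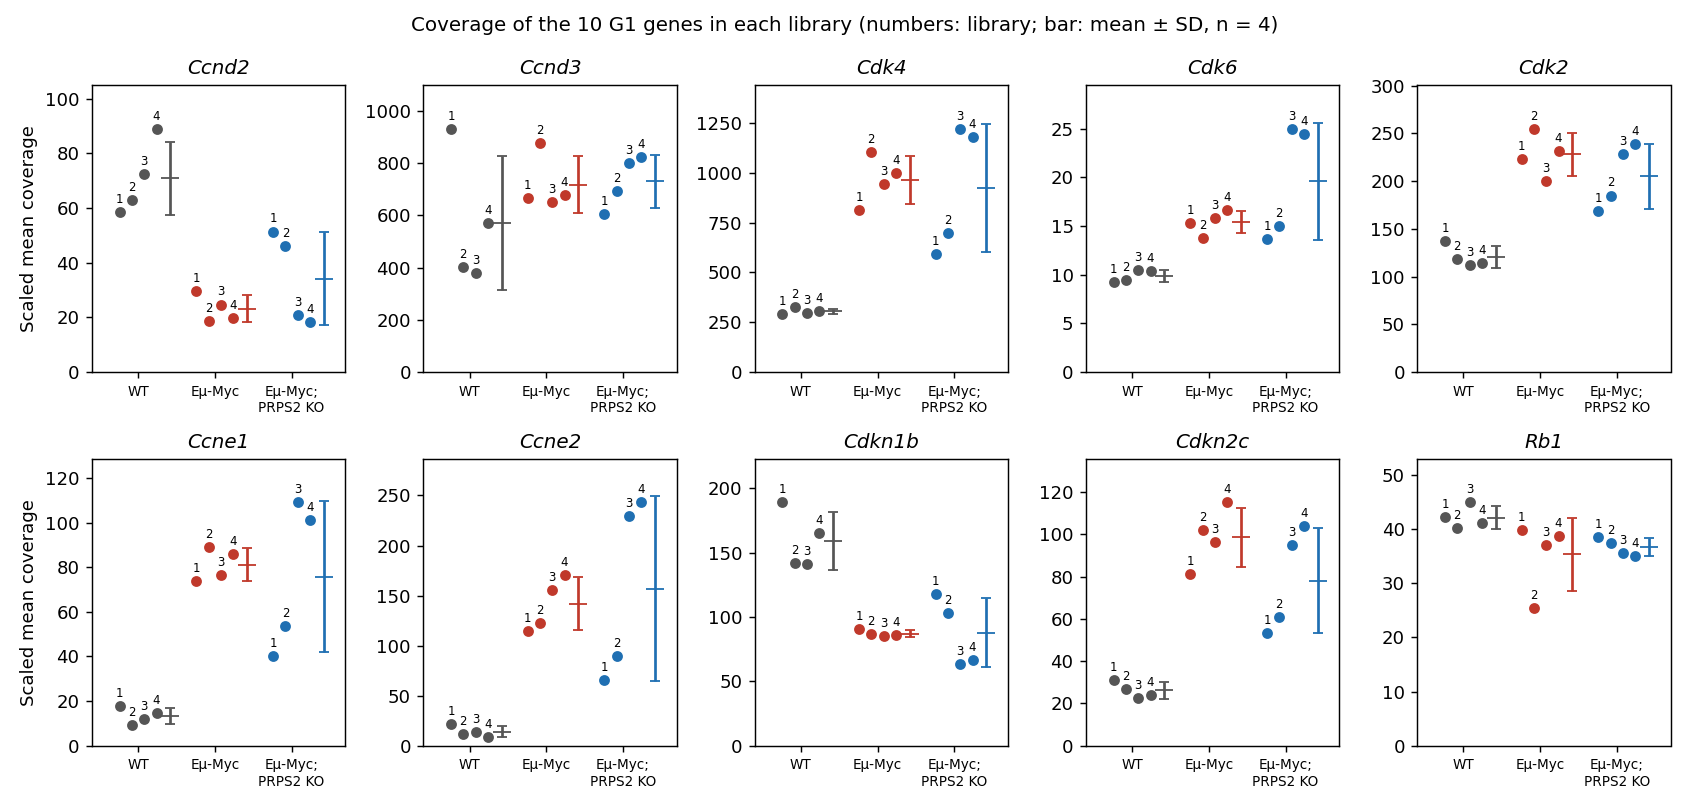
Scaled coverage of each of the 10 genes in the 12 libraries, on linear axes from 0. Numbered points are libraries 1 to 4 of WT (grey), Eμ-Myc (red) and Eμ-Myc; PRPS2 KO (blue), and the bar beside them is the mean ± SD (n = 4). The Eμ-Myc points lie apart from WT for every gene but Ccnd3, narrowly for Rb1, and the knockout points fall into libraries 1 and 2 and libraries 3 and 4 for most genes.

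**Figure D2:**
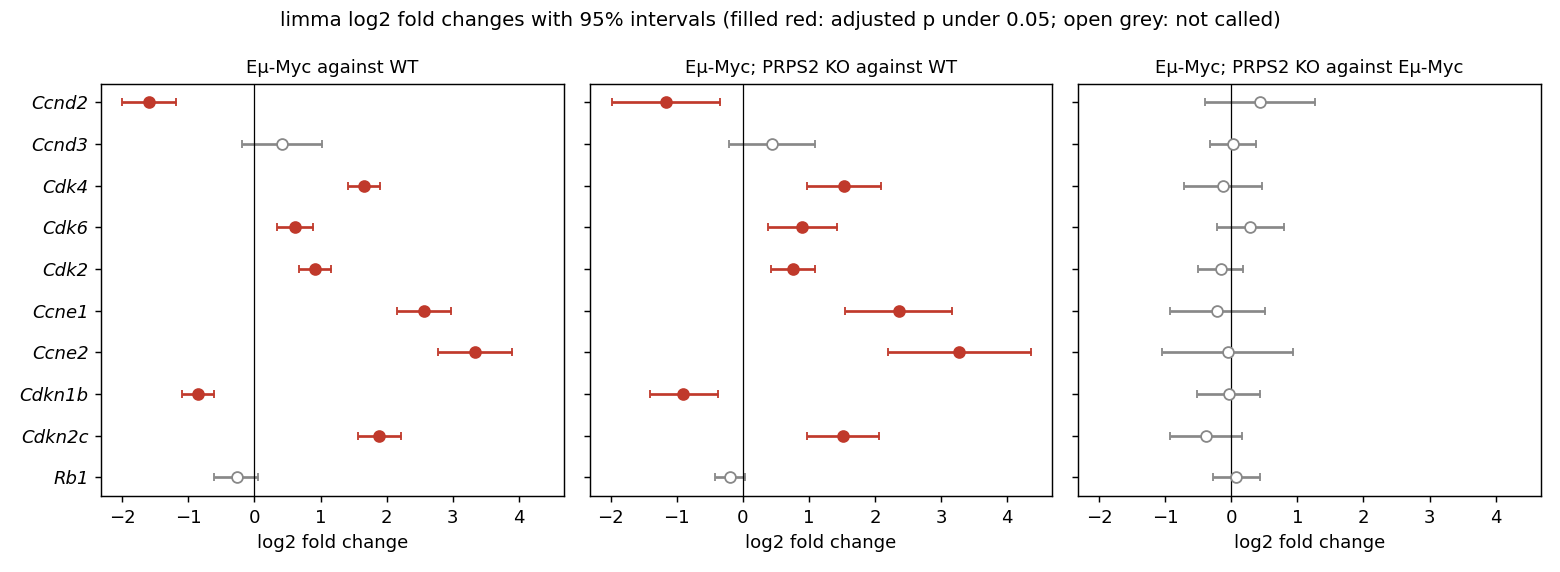
Log2 fold changes of the 10 genes from limma in the 3 comparisons, on a shared axis, with 95% intervals; filled red points passed an adjusted p of 0.05 and open grey points did not. The 8 filled genes are the same against WT in both left panels, with wider intervals for the knockout group, and no point is filled in the right panel.

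Among the D-type cyclins, Ccnd2, which couples mitogen and B cell receptor signals to CDK4 and CDK6, was lower with the transgene. It lies at chr6:127125162-127152193 on the minus strand (mm10, GENCODE M21). Scaled coverage was 58.5, 63.0, 72.6 and 89.0 in WT libraries 1 to 4, 29.5, 18.7, 24.7 and 19.9 in Eμ-Myc, and 51.4, 46.1, 20.9 and 18.4 in the knockout group. All 8 transgenic libraries were below all WT libraries; within the knockout group, libraries 1 and 2 sat close to the lowest WT library and above every Eμ-Myc library, and libraries 3 and 4 sat inside or just under the Eμ-Myc range. Against WT the log2 fold change was -1.59 in Eμ-Myc (SE 0.18, limma adjusted p 1.02e-04) and -1.16 in the knockout group (SE 0.35, limma adjusted p 0.0420). The second call was lost when any 1 of the WT libraries 1 to 4 or of the knockout libraries 3 and 4 was left out (adjusted p 0.0781 to 0.110). The knockout libraries with the higher Ccnd2 held the more T cell and mature B cell marker coverage. Within WT, T cell markers summed to 1346, 718, 936 and 3895 in libraries 1 to 4, the order of Ccnd2 for libraries 2 to 4 but not for library 1, and mature B cell markers to 3519, 4893, 4849.6 and 3645.

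The other D-type cyclin of the 10, Ccnd3 (chr17:47505051-47599691, plus strand), is the D cyclin that dividing pre-B cells and germinal centre B cells depend on. Its scaled coverage was 932, 402, 379 and 572 in WT, 665, 879, 651 and 677 in Eμ-Myc, and 607, 692, 802 and 824 in the knockout group. WT library 1 was above every other library and the other WT libraries were below every transgenic library, so the groups overlap through that single library. The difference did not pass the test in Eμ-Myc against WT (log2 fold change 0.42, 95% interval -0.19 to 1.02, limma adjusted p 0.208), nor in the knockout group against WT (0.44, interval -0.21 to 1.09, adjusted p 0.220). Without WT library 1 the first value was 0.68 with a limma adjusted p of 0.0116, past the threshold, and with library quality weights on all 8 libraries it was 0.62 with an adjusted p of 0.0101, where 71.2% of all genes passed. WT library 1 and Eμ-Myc library 2, the highest Ccnd3 library of each group, were also the highest in myeloid marker coverage of their groups (27979 and 17492), whereas in the knockout group the highest in myeloid markers, library 1, was the lowest in Ccnd3.

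Cdk4, the catalytic partner of the D cyclins, had the largest rise in scaled coverage of the 10 genes. The gene spans chr10:127063534-127067920 on the plus strand. Its scaled coverage was 291, 324, 297 and 304 in WT, 812, 1103, 944 and 1001 in Eμ-Myc, and 594, 698, 1221 and 1179 in the knockout group. WT was tight, with an SD of 14.6 around a mean of 304, and each transgenic library was above each WT library; the knockout libraries lay on both sides of the Eμ-Myc range. The log2 fold change against WT was 1.66 in Eμ-Myc (SE 0.11, limma adjusted p 6.26e-06) and 1.53 in the knockout group (SE 0.24, limma adjusted p 0.00980). Its exons share 641 bases with exons of Tspan31 on the other strand, and whether the counting used strand is not stated; Tspan31 itself was at 44.6 in WT and 43.6 in Eμ-Myc, far below Cdk4.

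Since Cdk4 is known as a gene that Myc binds through E-boxes, its promoter is shown with the E-box letters CACGTG (the same on both strands) in capitals, beside the stretch of Cdk6 that holds the same letters and an E2F-type match (TTTNNCGC, searched on both strands). The letters come from the RefSeq promoter windows of GRCm38.p6, the mm10 assembly, which run from 250 bases before to 50 after a start; windows were matched for 7 of the 10 genes. The Cdk4 stretch lies at chr10:127063343-127063533, upstream of the gene, and the Cdk6 stretch at chr5:3343653-3343722, upstream of a RefSeq start and within an intron of the GENCODE gene; both are written 5′ to 3′ on the plus strand.
Cdk4: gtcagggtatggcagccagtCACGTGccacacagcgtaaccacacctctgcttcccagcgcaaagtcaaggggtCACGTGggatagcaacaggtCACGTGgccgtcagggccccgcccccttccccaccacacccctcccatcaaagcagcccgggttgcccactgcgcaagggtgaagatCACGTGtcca
Cdk6: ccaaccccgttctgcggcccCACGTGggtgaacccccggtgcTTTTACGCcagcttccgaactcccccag
The Cdk4 window holds 4 E-boxes upstream of its start, beginning 172, 118, 98 and 11 bases before it, and as many are found in 7 of the 32817 RefSeq promoter windows (0.0213%). The Cdk6 stretch holds 1 E-box, 220 bases before the start, and the E2F-type match TTTTACGC 198 bases before it. Of all windows, 7.15% hold an E-box and 5.16% an E2F-type match. Among the other genes, Cdk2 has an E2F-type match, GCGGGAAA as read on its strand, 140 bases before its start. Cdkn2c has an E-box just past a RefSeq start whose window, chr4:109665323-109665622, lies within the GENCODE gene and not at its 5′ end. The windows of Ccnd3, Ccne1 and Cdkn1b hold neither set of letters. A match describes the letters and is not evidence of binding in these cells.

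Cdk6, the other partner of the D cyclins, was far less abundant than Cdk4 and rose less. It spans chr5:3341485-3531008 on the plus strand. Its scaled coverage was 9.21, 9.41, 10.5 and 10.4 in WT, 15.3, 13.8, 15.8 and 16.6 in Eμ-Myc, and 13.7, 15.0, 25.0 and 24.5 in the knockout group. Each transgenic library was above each WT library, and knockout libraries 3 and 4 were above every other library. The log2 fold change against WT was 0.61 in Eμ-Myc (SE 0.12, limma adjusted p 0.00252) and 0.90 in the knockout group (SE 0.23, limma adjusted p 0.0285). The second call was lost when any 1 of the WT libraries 1 to 4 or the knockout libraries 3 and 4 was left out (adjusted p 0.0578 to 0.0845).

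The E-type cyclins rose most in relative terms. Ccne1, at chr7:38097984-38107534 on the minus strand, was at 17.8, 9.41, 12.2 and 14.8 in WT, 73.7, 89.0, 76.4 and 85.8 in Eμ-Myc, and 40.3, 53.7, 109 and 101 in the knockout group. Ccne2, at chr4:11191351-11204779 on the plus strand, was at 21.8, 11.8, 14.0 and 9.11 in WT, 115, 123, 156 and 171 in Eμ-Myc, and 65.8, 89.4, 229 and 243 in the knockout group. For both genes the transgenic libraries were all above WT, and the knockout libraries left a gap in which the whole Eμ-Myc group fits, libraries 1 and 2 below it and 3 and 4 above it. The log2 fold change in Eμ-Myc against WT was 2.57 for Ccne1 (SE 0.18, limma adjusted p 8.53e-06) and 3.33 for Ccne2 (SE 0.25, limma adjusted p 1.26e-05). For the knockout libraries against WT it was 2.36 for Ccne1 (SE 0.35) and 3.27 for Ccne2 (SE 0.47), each with a limma adjusted p of 0.00933. In WT the ranges of Ccne1 and Ccne2 overlapped, and Ccne2 was 0.615 to 1.25 times as high as Ccne1. In Eμ-Myc and the knockout group Ccne2 was the higher of the pair in every library, by 1.39 to 2.05 and by 1.63 to 2.42 times. Exons of Ccne2 share 609 bases with Ints8 on the other strand, which was at 45.0 in WT and 51.9 in Eμ-Myc. Since the WT level of Ints8 exceeded that of Ccne2, the WT values of Ccne2 are uncertain to the extent that reads were counted without strand.

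Cdk2, the kinase that cyclin E activates, changed less than its cyclins. The gene is at chr10:128697939-128705031 on the minus strand, and its scaled coverage was 137, 118, 112 and 114 in WT, 223, 255, 199.8 and 232 in Eμ-Myc, and 169, 185, 229 and 239 in the knockout group. All transgenic libraries were above WT, with knockout libraries 1 and 2 in the gap between WT and Eμ-Myc and libraries 3 and 4 inside the Eμ-Myc range. The log2 fold change against WT was 0.91 in Eμ-Myc (SE 0.11, limma adjusted p 1.26e-04) and 0.76 in the knockout group (SE 0.15, limma adjusted p 0.0144). The second call was lost when WT library 2 or 3 was left out (adjusted p 0.0526 and 0.0514).

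The inhibitors moved in opposite directions. Cdkn1b, which encodes p27, the inhibitor that holds cyclin E-CDK2 inactive in resting cells, is at chr6:134920401-134925513 on the plus strand. Its scaled coverage was 189, 142, 141 and 165 in WT, 90.7, 87.0, 85.1 and 86.2 in Eμ-Myc, and 118, 103, 63.4 and 66.9 in the knockout group. The Eμ-Myc libraries had a mean of 87.2 and an SD of 2.42, the smallest relative spread of the 10 genes in that group (2.77% of the mean), and knockout libraries 1 and 2 were above them and 3 and 4 below. All 8 transgenic libraries were under WT. The log2 fold change against WT was -0.85 in Eμ-Myc (SE 0.11, limma adjusted p 2.11e-04) and -0.90 in the knockout group (SE 0.23, limma adjusted p 0.0280). The second call was lost when any 1 of the WT libraries 1 to 4 or of the knockout libraries 3 and 4 was left out (adjusted p 0.0626 to 0.0808).

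Cdkn2c, which encodes the CDK4 and CDK6 inhibitor p18, rose with the transgene. It lies at chr4:109660876-109667189 on the minus strand, and its scaled coverage was 31.3, 27.0, 22.4 and 24.1 in WT, 81.1, 102, 96.4 and 115 in Eμ-Myc, and 53.2, 60.7, 94.7 and 104 in the knockout group. Every transgenic library was above WT; knockout libraries 1 and 2 were under the Eμ-Myc range and libraries 3 and 4 inside it. The log2 fold change against WT was 1.89 in Eμ-Myc (SE 0.14, limma adjusted p 1.17e-05) and 1.51 in the knockout group (SE 0.24, limma adjusted p 0.00966).

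Rb1, whose protein is the substrate of these kinases, is at chr14:73183673-73325822 on the minus strand and differed little. Its scaled coverage was 42.2, 40.1, 44.9 and 41.1 in WT, 39.8, 25.4, 37.1 and 38.8 in Eμ-Myc, and 38.6, 37.5, 35.5 and 35.0 in the knockout group. WT was the highest group with no overlap, but by a margin narrower than the spread within groups, and Eμ-Myc library 2 was the lowest. The test did not pass in Eμ-Myc against WT (log2 fold change -0.27, 95% interval -0.61 to 0.06, limma adjusted p 0.143) or in the knockout group against WT (-0.20, interval -0.42 to 0.03, adjusted p 0.132). Exons of Rb1 share 408 bases with Lpar6 and 488 with Rcbtb2 on the other strand, and both neighbours had coverage of the same order as Rb1 (35.6 and 57.8 in WT), so its values are uncertain if strand was not used. Smaller overlaps concern Ccnd3, with 361 bases shared with Bysl (17.6 in WT), and Ccnd2, with 368 bases shared with 9330179D12Rik (2.76 in WT). Cdk2 shares 34 bases with Pmel (0.580 in WT). Ccnd2 also shares 372 bases with Gm43126 and Cdk6 shares 368 with Gm17590, antisense genes that have no values among the listed symbols.

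The order of the 10 genes by mean scaled coverage differed between groups, reading coverage as a depth per base so that genes of different length can be set side by side. In WT the order was Ccnd3 (571 ± 255), Cdk4 (304 ± 14.6), Cdkn1b (159 ± 22.6), Cdk2 (120.4 ± 11.5), Ccnd2 (70.8 ± 13.5), Rb1 (42.1 ± 2.09), Cdkn2c (26.2 ± 3.88), Ccne2 (14.2 ± 5.48), Ccne1 (13.5 ± 3.57) and Cdk6 (9.87 ± 0.657; SD, n = 4 each). Of the neighbours in that order, the ranges overlapped for Ccne2 with Ccne1 and for Ccne1 with Cdk6, and not for the others. In Eμ-Myc, Cdk4 (965 ± 121) and Ccnd3 (718 ± 108) came first with overlapping ranges, and Cdk2 (228 ± 23.0) and Ccne2 (142 ± 26.5) followed. Cdkn2c (98.6 ± 14.0), Cdkn1b (87.2 ± 2.42) and Ccne1 (81.2 ± 7.33) came next with overlapping neighbours, and Rb1 (35.3 ± 6.68), Ccnd2 (23.2 ± 4.95) and Cdk6 (15.4 ± 1.16) were the lowest, with overlap between Rb1 and Ccnd2. Thus Ccnd2 and Cdkn1b, above both E cyclins in WT, were below Ccne2 in each Eμ-Myc library. The order of means was the same in the knockout group but for Cdkn1b (87.8 ± 26.9) above Cdkn2c (78.1 ± 24.9), and the ranges of neighbours overlapped except for Ccnd3 with Cdk2 and Ccne1 with Rb1.

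Ratios within a library do not depend on its scaling factor, and 6 such measures, Ccne2 over Ccne1 above among them, and 1 sum were computed and are given without tests. Cdk2 over Cdkn1b, a kinase and the inhibitor of its complex, was 0.727, 0.828, 0.796 and 0.692 in WT, 2.46, 2.94, 2.35 and 2.69 in Eμ-Myc, and 1.43, 1.80, 3.61 and 3.57 in the knockout group. The inhibitor gene thus had the higher coverage in every WT library and the kinase gene in every transgenic one. By contrast Cdk4 over Cdkn2c, likewise a kinase and its inhibitor, was 9.30, 12.01, 13.3 and 12.6 in WT, 10.02, 10.8, 9.79 and 8.72 in Eμ-Myc, and 11.2, 11.5, 12.9 and 11.3 in the knockout group. WT overlapped with each of the other groups, but with Eμ-Myc only through WT library 1. The other WT libraries and all knockout libraries were above the Eμ-Myc libraries. Cdk4 over Cdk6 was 31.6, 34.5, 28.3 and 29.3 in WT, 53.2, 79.6, 59.9 and 60.2 in Eμ-Myc, and 43.3, 46.5, 48.8 and 48.2 in the knockout group. This ratio separated the 3 groups without overlap and was alike in all 4 knockout libraries, although Cdk4 and Cdk6 themselves differed between libraries 1 and 2 and libraries 3 and 4. The share of all gene pairs whose ratio separates groups in this way was not computed. No gene of the 10 by itself separated the knockout group from Eμ-Myc. Whether the separations of these ratios go with the loss of PRPS2 was not tested. Ccnd3 over Ccnd2 was 15.9, 6.38, 5.22 and 6.42 in WT, 22.5, 47.2, 26.3 and 33.98 in Eμ-Myc, and 11.8, 15.02, 38.4 and 44.9 in the knockout group. Knockout libraries 1 and 2 were within the WT range only through WT library 1, and above the other WT libraries. With Ccnd1 counted in, Ccnd2 made up 5.62% to 14.6% of the D cyclin coverage in WT, 1.96% to 3.91% in Eμ-Myc and 1.97% to 7.29% in the knockout group. Ccne1 and Ccne2 together summed to 21.2 to 39.6, 189 to 257 and 106 to 344 in the same order.

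**Figure D3:**
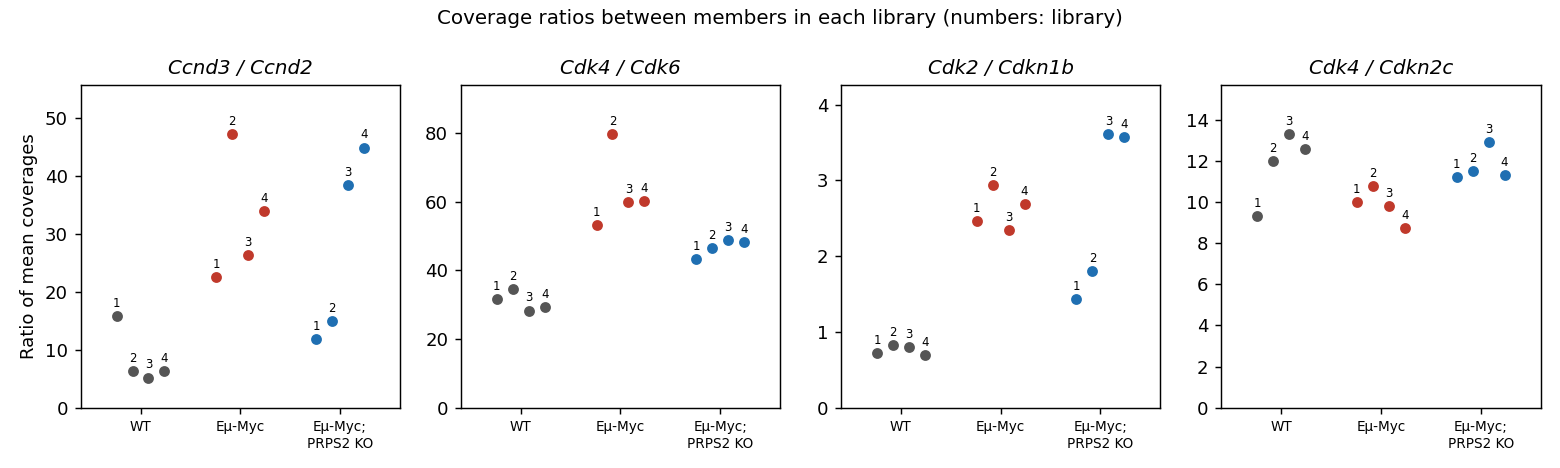
Ratio of the coverages of 4 pairs of genes in each library, on linear axes from 0. Numbered points are libraries 1 to 4 of WT (grey), Eμ-Myc (red) and Eμ-Myc; PRPS2 KO (blue). Cdk2 over Cdkn1b is below 1 in the 4 WT libraries and above 1 in the 8 others, and Cdk4 over Cdk6 separates the 3 groups. Cdk4 over Cdkn2c overlaps between WT and each of the others, with Eμ-Myc only through WT library 1, but not between the transgenic groups.

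The comparison between the transgenic groups asks whether the loss of PRPS2 altered this set in cells with the transgene. The log2 fold changes ran from -0.38 for Cdkn2c (95% interval -0.92 to 0.16) to 0.43 for Ccnd2 (interval -0.40 to 1.26), 4 positive and 6 negative, with a median of -0.05 against -0.04 over all genes and a limma adjusted p of 1.00 for each. The intervals were wide for the genes whose knockout libraries differed most, Ccne2, Ccnd2 and Ccne1, with SDs of 58.8%, 49.7% and 44.7% of their means: Ccne2 had -0.05 (interval -1.05 to 0.94), a fold between 0.483 and 1.92, and Ccne1 -0.21 (interval -0.93 to 0.51). They were narrower for Cdk2 (-0.16, interval -0.50 to 0.18), Ccnd3 (0.03, interval -0.32 to 0.37) and Rb1 (0.08, interval -0.28 to 0.44). Cdk4 had -0.13 (interval -0.71 to 0.46), Cdk6 0.29 (interval -0.22 to 0.80) and Cdkn1b -0.04 (interval -0.52 to 0.44). With libraries of the same number taken as pairs, Cdkn2c was lower in the knockout library of all 4 pairs, and each other gene went both ways. This pairing is uncertain, since knockout libraries 2 and 3 correlated best with Eμ-Myc libraries 1 and 4. A fit with these pairs as a block gave Cdkn2c an SE of 0.17 against 0.24 without, and 0 of the 10 genes passed in limma. Leaving out any 1 library of either group gave 0 calls among the 10 genes. Library quality weights, which limma estimates from the spread of each library, set knockout libraries 1 to 4 at 0.0855, 0.131, 3.05 and 8.50 and Eμ-Myc libraries 1 to 4 at 1.10, 0.308, 4.69 and 2.16; the estimate stopped before it converged. With them 6 of the 10 genes passed (Ccnd3, Cdk4, Cdk6, Ccne1 and Ccne2 higher and Cdkn1b lower), near the 57.8% of all genes that passed with the same weights.

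Within the knockout group the genes moved together from library to library. Of the 8 genes called in Eμ-Myc against WT, library 1 was on the WT side of the whole Eμ-Myc range for 8 and library 2 for 7, with Cdk6 inside it. Libraries 3 and 4 were on the far side of that range from WT for 5 genes (Cdk4, Cdk6, Ccne1, Ccne2 and Cdkn1b) and for 6 (the same and Ccnd2), and inside it for the rest. The SD of the knockout group relative to its mean was larger than in Eμ-Myc for each of these 8 genes, such as 58.8% against 18.7% for Ccne2 and 30.7% against 2.77% for Cdkn1b, and smaller for Ccnd3 (13.8% against 15.1%) and Rb1 (4.57% against 18.9%). Myc followed the same split, at 1131, 1704, 2881 and 3121 in knockout libraries 1 to 4 against 1582 to 2235 in Eμ-Myc and 238 to 352 in WT, while Prps2 stayed between 15.4 and 18.8. The proliferation genes summed to 2649, 3454, 6800.1 and 6787 in the knockout libraries against 4297 to 5442 in Eμ-Myc, and the T cell, NK cell, mature B cell and myeloid markers ran the other way.

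**Figure D4:**
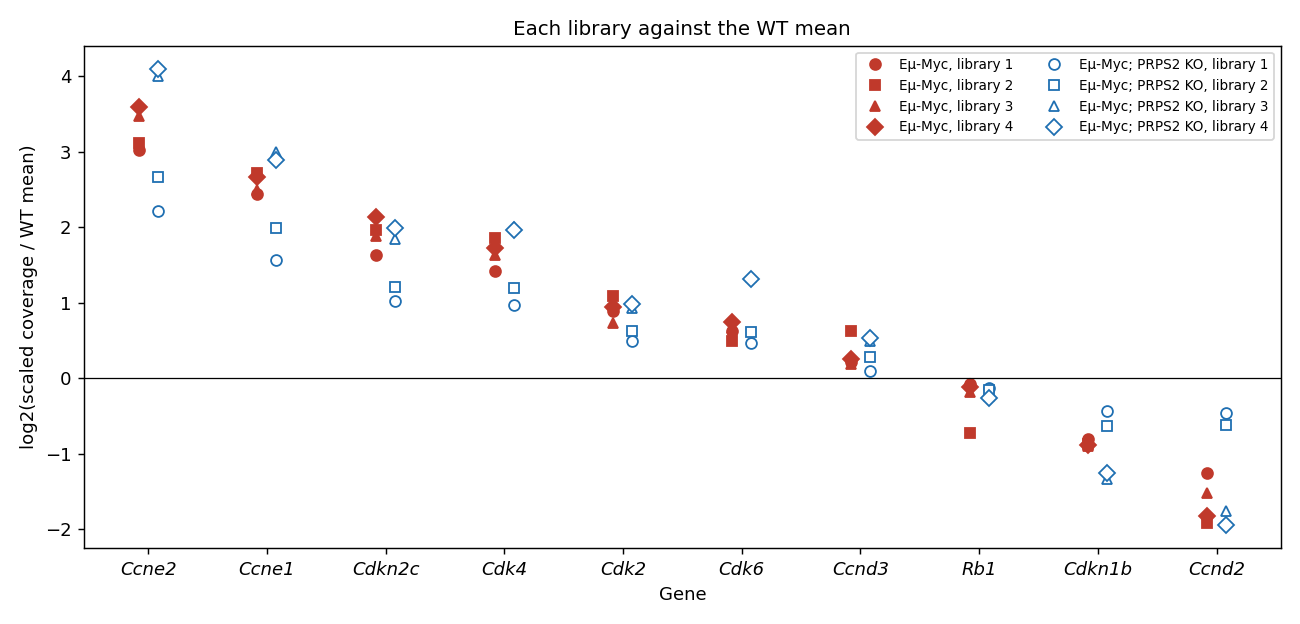
Log2 ratio of each transgenic library to the WT mean for the 10 genes, ordered from the largest rise to the largest fall; filled red symbols are Eμ-Myc and open blue symbols Eμ-Myc; PRPS2 KO, with the symbol shape giving the library and the line at 0 the WT mean. For the 8 genes with calls, open circles and squares (knockout libraries 1 and 2) lie nearer 0 than nearly all filled symbols, and open triangles and diamonds (libraries 3 and 4) lie within or beyond them.

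**Figure D5:**
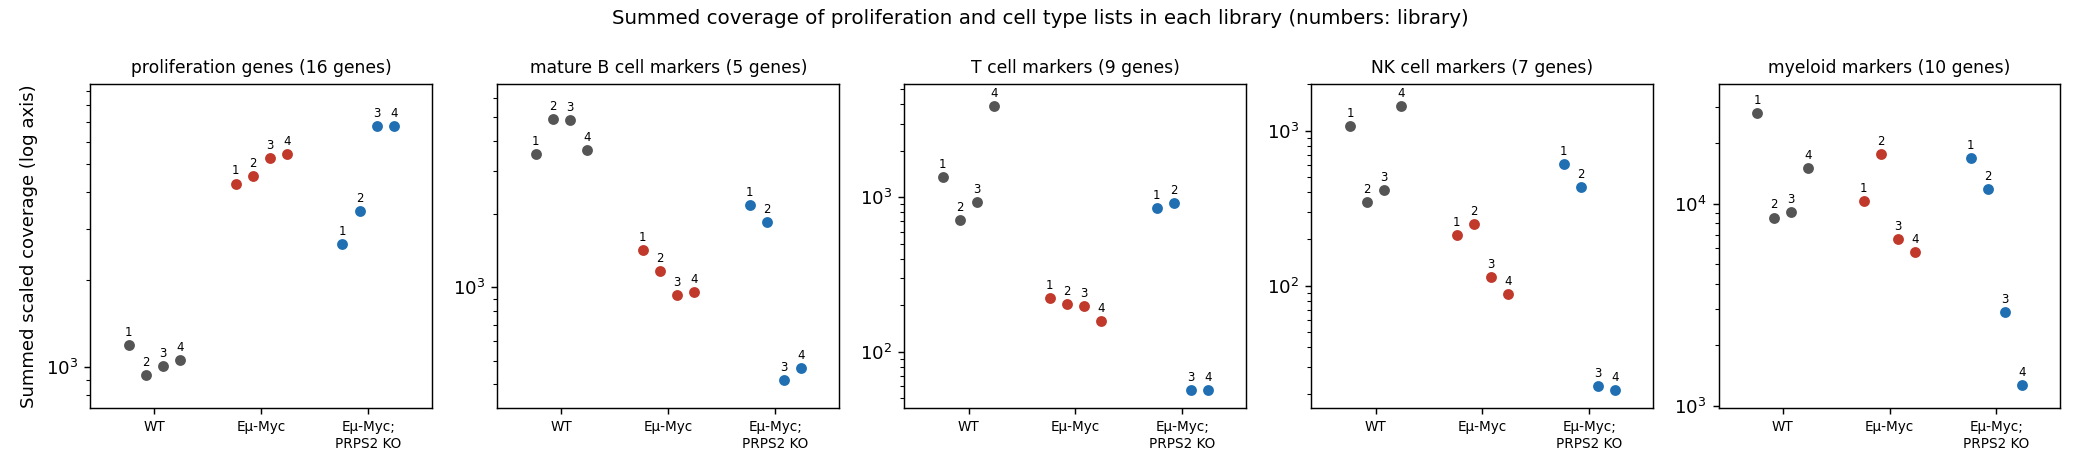
Summed scaled coverage, on log axes, of the proliferation genes and of the mature B cell, T cell, NK cell and myeloid markers in each library; numbered points are libraries 1 to 4 of WT (grey), Eμ-Myc (red) and Eμ-Myc; PRPS2 KO (blue). Knockout libraries 1 and 2 are lower than 3 and 4 in proliferation genes (2649 and 3454 against 6800.1 and 6787) and higher in each marker sum.

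A list of 31 other regulators of the same step moved in the same comparisons. In Eμ-Myc against WT 25 of 31 passed in limma, 22 higher and 3 lower, where 56.2% of all genes passed, 28.3% higher and 27.9% lower; the median log2 fold change was 0.84 against -0.07 over all genes. By family, the 12 with the smallest adjusted p were all higher. Among the E2F and DP factors, E2f1 rose 3.68-fold (21.9 ± 3.83 to 81.3 ± 7.98), E2f2 2.84-fold, E2f7 7.52-fold, E2f6 1.90-fold, E2f4 1.68-fold and Tfdp1, a DP partner of the E2Fs, 4.50-fold. E2f3, E2f8 and Tfdp2 also passed as higher, and E2f5 did not pass (0.939 of the WT level, limma adjusted p 0.580). Of the genes of p27 turnover, Skp2 rose 3.75-fold (10.6 ± 1.29 to 41.2 ± 3.91) and Cks1b 8.19-fold (48.1 ± 12.8 to 393 ± 72.3; SD, n = 4 each). The 9 genes listed for turnover of cyclins and p27 did not all rise: Skp1a, Cul1 and Ubac1 also passed as higher, Rnf123 fell to 0.733 (limma adjusted p 0.0142) and Ambra1 to 0.790 (adjusted p 0.0229) of the WT level, and Rbx1 and Fbxw7 did not pass. Cdc25a, the phosphatase that activates CDK2, rose 2.66-fold, and Ccnh, the cyclin of the CDK-activating kinase, 1.86-fold. The other inhibitors with a change were Cdkn2a (2.22 ± 0.614 to 30.6 ± 5.39, 11.5-fold), which encodes p16 and ARF, and Cdkn1c (2.79 ± 1.25 to 38.4 ± 10.5, 12.1-fold), which encodes p57. The inhibitor genes Cdkn1a, Cdkn2b and Cdkn2d did not pass. The limma adjusted p of the 12 ran from 4.82e-06 for Cdkn2a to 1.31e-04 for Ccnh. Ccnd1, the D cyclin outside the 10 genes, rose 1.46-fold (limma adjusted p 0.0355), opposite to Ccnd2, and Rbl2, the pocket protein p130 of resting cells, fell to 0.551 of its WT level (adjusted p 9.68e-04), while Rbl1, the pocket protein p107, rose 1.76-fold (adjusted p 0.00387). The genes outside the 12 were picked out after their values were seen. The knockout group against WT gave 19 of 31, 18 higher and 1 lower, where 31.4% of all genes passed, and against Eμ-Myc 0 of 31, with 0 under an unadjusted p of 0.05, where 1 gene of all tested passed. The count of 19 fell to between 10 and 12 when any 1 of the WT libraries 1 to 4 or the knockout libraries 3 and 4 was left out, fits in which the share of all genes called fell from 31.4% to between 5.18% and 12.4%.

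The cyclins and the kinase of S, G2 and M phase had a median log2 fold change of 3.09 in Eμ-Myc against WT, beside 0.76 for the 10 G1 genes. All 5 rose, among them Ccna2 (8.53-fold), Ccnb1 (10.5-fold) and Ccnf (6.51-fold). The 16 proliferation genes also all rose, by a median of 2.57, among them the replicative helicase genes Mcm2 (3.83-fold), Mcm3 (4.06-fold), Mcm6 (4.22-fold) and Mcm7 (5.03-fold). Each of these 7 had a limma adjusted p of 2.15e-05 or less. Of all genes 28.3% rose in this comparison. For the knockout group against WT 5 of 5 and 16 of 16 passed, beside 31.4% of all genes, and against Eμ-Myc 0 of each, with 0 under an unadjusted p of 0.05, beside 0.00799% of all genes, so that a count of 0 sets neither list apart.

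Calls in the knockout group against WT changed with single libraries, over all genes as well as among the 10. The 8 calls were 8 without knockout library 1 or 2, where 54.6% and 34.4% of all genes passed. They fell to 5 without knockout library 3 or 4 or WT library 1 or 4, and to 4 without WT library 2 or 3, while the share of all genes called fell from 31.4% to between 5.18% and 12.4% in these 6 fits. Cdk4, Ccne1, Ccne2 and Cdkn2c passed in each of these fits, and Cdk2 in all but those without WT library 2 or 3. In Eμ-Myc against WT the count was 8 without any 1 library except WT library 1, where Ccnd3 made it 9, and the share of all genes ran from 46.9% to 56.2%.

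For Ccnd2, Cdk4, Cdkn1b and Cdkn2c, the genes with the most similar pattern over the 12 libraries were sought among the 9372 genes whose scaled coverage averaged at least 8. The measure was Pearson's r of log2 scaled coverage, given as a description, since the libraries share their 3 groups and their cell composition. The nearest to Ccnd2 were Unkl (r 0.988), Gosr1 and Jade2 (both 0.987). Cdk4 was followed most closely by Cenpv, Impdh2 and Galnt14 (0.998 each); Impdh2, an enzyme of guanine nucleotide synthesis, had means of 129, 399.9 and 414 in WT, Eμ-Myc and the knockout group. Next to Cdkn1b were Sun2 and Bsdc1 (0.987 each) and Cast (0.985), and next to Cdkn2c were Gmnn (0.992), which encodes geminin, an inhibitor of replication licensing, and Cenpm and H2afx (0.991 each).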

How the data were processed

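Per the labels, polyadenylated RNA of spleen B lymphocytes was made into directional libraries. The authors deposited 1 table per library with a coverage signal per gene, for 24982 symbols and with 1 decimal; that it is a mean per base is read from the values and is not stated. Per the submitters' processing notes, the build was mm10, and DESeq and R 4.3.3 were named without a role. Aligner, annotation and strand use are not given in the sources used here. The values are not counts, so no count model was used. Each library was divided by a trimmed mean of log ratios (unweighted, after trimming 30% of the ratios and 5% of the mean levels from either end) over genes with coverage of at least 1 in every library, a gene set chosen after seeing the data. Genes that reached a scaled coverage of 1 in 4 or more of the 8 libraries were fitted with limma 3.58.1 in R 4.3.3 on log2(scaled coverage + 0.5), with a trended, robust prior. The fold changes are on this scale, which understates the change of low genes. p-values are two-sided and Benjamini-Hochberg adjusted over all genes; calls are adjusted p under 0.05. The method was tested on simulated data.

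The members and lists were chosen with earlier results of these data known. All 10 members were named, and the 12, 3 and 4 genes with the smallest adjusted p in Eμ-Myc against WT of the other G1/S, the S to M phase and the proliferation lists; the 9 marker lists covered stages of B cells, plasma cells and other blood lineages. For likeness, the 3 genes with the highest r were named, without Gm, Rik and sex-linked symbols. Of the marker lists not given in full in the results, 2 of 5 plasma cell markers passed in Eμ-Myc against WT (1 higher and 1 lower) and 0 of 5 in the knockout group against WT; erythroid markers summed to 81.5 to 863 per library and platelet markers to 31.5 to 353, with 1 of 4 platelet markers lower in Eμ-Myc against WT. Replicates are numbered 1 to 4 in each group. Deviations from group means of same-numbered libraries correlated with r 0.639, 0.184, 0.242 and 0.597 in the knockout group and Eμ-Myc, all over 0.1. A fit with these numbers as a block was therefore taken as paired. Knockout libraries 2 and 3, however, correlated best with Eμ-Myc libraries 1 and 4, so the values do not bear out pairing by number. The labels do not give a pairing either. Other alternatives were scaling by median of ratios or by total coverage, factors from all genes (added after seeing the data), pseudocounts of 0.1 and 2, dropping the filter, raising it to 10 for every library, a joint fit of the 12 libraries, library quality weights, a prior that is not robust, and leaving out each library. Tables and figures used Python 3.11.15, numpy 2.4.6, pandas 2.3.3 and matplotlib 3.10.9.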

Additional observations from a re-analysis of the deposited data

Results flagged for a closer look

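Ccnd3 in Eμ-Myc library 2 was at a scaled coverage of 879, apart from the other Eμ-Myc libraries at 651 to 677; the gap was 0.885 of the range of the group. It was the only such gap among 30 groups of 4 libraries checked (10 genes in 3 groups), and chance gives about 1 in 20. The same library had the highest myeloid marker sum of its group, 17492; the part of these markers was not tested.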

How the results depend on the processing

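The count of 8 of the 10 genes for Eμ-Myc against WT was 8 or 9 under every alternative but a filter of 10 in every library, which left 7 of the 10 genes to test and 5 called (59.9% of all genes); the same filter gave 5 called in the knockout group against WT (41.3% of all genes). Ccnd3 passed there without WT replicate 1 or with library quality weights, as in the text. In the knockout group against WT, leaving out each library gave 4 to 8 of the 10 genes and 10 to 24 of the other 31 regulators, with 5.18% to 54.6% of all genes called, and library quality weights gave 10 of the 10, Ccnd3 (0.88) and Rb1 (-0.26) included, and 30 of the 31, with 84.0% of all genes called. A replicate block there gave 7 genes, with Ccnd2 lost (-1.16, limma adjusted p 0.0796), and 14 of the 31, with 15.0% of all genes called; in Eμ-Myc against WT it gave 8 and 25, and in the knockout group against Eμ-Myc, where the numbers were treated as pairs, 0 and 0, so it changed no other call of the 10 genes. Same-numbered libraries of Eμ-Myc and WT and of the knockout group and WT did not all correlate (lowest r -0.0968 and -0.409). No filter also took Ccnd2 to an adjusted p of 0.0519 in the knockout group against WT.

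In the knockout group against Eμ-Myc, library quality weights gave 6 of the 10 genes and 22 of the 31, with 57.8% of all genes called against 0.00799% without weights, and turned the direction of Ccnd2 (-0.29), Cdk4 (0.32), Cdk2 (0.14), Ccne1 (0.36), Ccne2 (0.62), Cdkn2c (0.02) and Rb1 (-0.08); the weights, whose estimate did not converge, favoured knockout libraries 3 and 4 and Eμ-Myc library 3. Leaving out single libraries there gave 0 calls, while the log2 fold change ran from -0.28 to 0.06 for Cdk4, -0.43 to 0.05 for Ccne1, -0.34 to 0.29 for Ccne2, -0.03 to 0.13 for Ccnd3, -0.20 to 0.10 for Cdkn1b and -0.07 to 0.14 for Rb1. Total coverage scaling shifted the median of all genes by -0.12 in Eμ-Myc against WT and no called gene changed direction. Read depth is unknown, so precision rests on 4 libraries per group.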
